A study of Mus musculus with 6 samples.

Results

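The genes that make, carry and read retinoic acid were followed across the arrays of newborn mouse olfactory epithelium. They comprise 9 genes: the retinaldehyde dehydrogenases Aldh1a1, Aldh1a2 and Aldh1a3, the cellular retinoic acid binding proteins Crabp1 and Crabp2, and the nuclear receptors Rara, Rarb, Rarg and Rxra. All probe sets, the groups of short probes that the array reads as 1 value, were taken whose platform annotation gave exactly one of these symbols. This gave 14 of the 45037 probe sets on the array, for 9 of the 18193 genes that had such a probe set. Aldh1a3 and Rxra had 3 each, Rarg had 2 and the other genes had 1.

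RNA came from 3 wild-type and 3 mutant pups aged 1 day, each pup on its own array. The strain of both groups was mixed, C57Black6/J with 129SvJ, and the labels name no treatment. The second group is labelled only as mutant. The study looked for genes under KLF7, a DNA-binding protein of the Krüppel-like family, in olfactory sensory neurons. The sources used here do not give the allele that the mutant pups carry or the cells in which it acts. The tissue is a dissected epithelium, so the RNA pools sensory neurons, progenitors, supporting cells and whatever lamina propria or neighbouring tissue came along. In such bulk RNA, fewer cells of a type and less RNA per cell cannot be told apart.

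Retinoic acid is made from vitamin A in consecutive oxidations. Retinol dehydrogenases such as Rdh10 turn retinol into retinal, and the Aldh1a enzymes turn retinal into retinoic acid. Crabp proteins bind retinoic acid in the cytoplasm, and in the nucleus a retinoic acid receptor paired with a retinoid X receptor binds response elements in DNA and switches genes with its ligand. Cyp26 enzymes break retinoic acid down. In the developing nose, retinoic acid passes between the mesenchyme and the olfactory epithelium and is known for its part in olfactory neurogenesis.

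Array medians of the deposited linear intensities lay between 38.21 and 61.59. On the first principal component of the genes tested, which carried 50.2% of the variance, wild-type array 3 and mutant array 3 stood at 98.2 and 49.5, while the other 4 arrays lay between -42.4 and -32.3. Each member is therefore also given without these arrays where they decide its value. All 4 Klf7 probe sets were lower on the mutant arrays with no overlap, by log2 differences (mutant minus wild type) from -3.06 to -2.15; where these probes lie relative to the mutation is not known here. Defining markers of olfactory epithelium were above the intensity floor on all 6 arrays: Gnal, the olfactory G protein subunit, at 9.10 to 10.36, Omp, of mature olfactory neurons, at 7.40 to 8.81, and Cyp2g1, of supporting cells and glands, at 10.97 to 11.80, all as normalized log2 intensities. Mature neuron markers, 8 of 10 measured, had summed normalized intensities of 5754 to 7455 in wild type and of 3313 to 4079 in mutant. Of these markers, Adcy3 was higher in the mutant by 0.36 in log2, and the groups overlapped for Adcy3, Omp and Cnga4. Immature neuron markers, 7 of 7 measured, summed to 13055 to 15158 in wild type and to 11176 to 12249 in mutant. Among them Ncam1 differed by only 0.0054 in log2, and the groups overlapped for Ncam1, Gap43, Tubb3 and Gng8. How far the gaps in these marker sums enter the retinoid values was not tested.

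No difference between mutant and wild type passed the test for any of the 9 retinoic acid genes. With limma, which was fitted to 12703 genes, 0 of the 9 passed an adjusted p of 0.05, beside 0 genes or 0% over all genes tested, and every member had an adjusted p of 1. Members at an unadjusted p under 0.05 numbered 0 of 9, beside 76 genes or 0.598% (0.441% lower and 0.157% higher in the mutant). Wild-type and mutant values overlapped for all 9, whereas 363 genes, or 2.86%, had groups without overlap. The means of 4 members were lower in the mutant and those of 5 were higher, beside 52.6% of all genes lower. The median difference over the 9 was 0.12 on the log2 scale, and over all genes tested it was -0.02. Each log2 value is of a quantile-normalized intensity raised to a floor of 12.56, so the size and sign of differences of dim genes can depend on that floor.

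**Figure D1:**
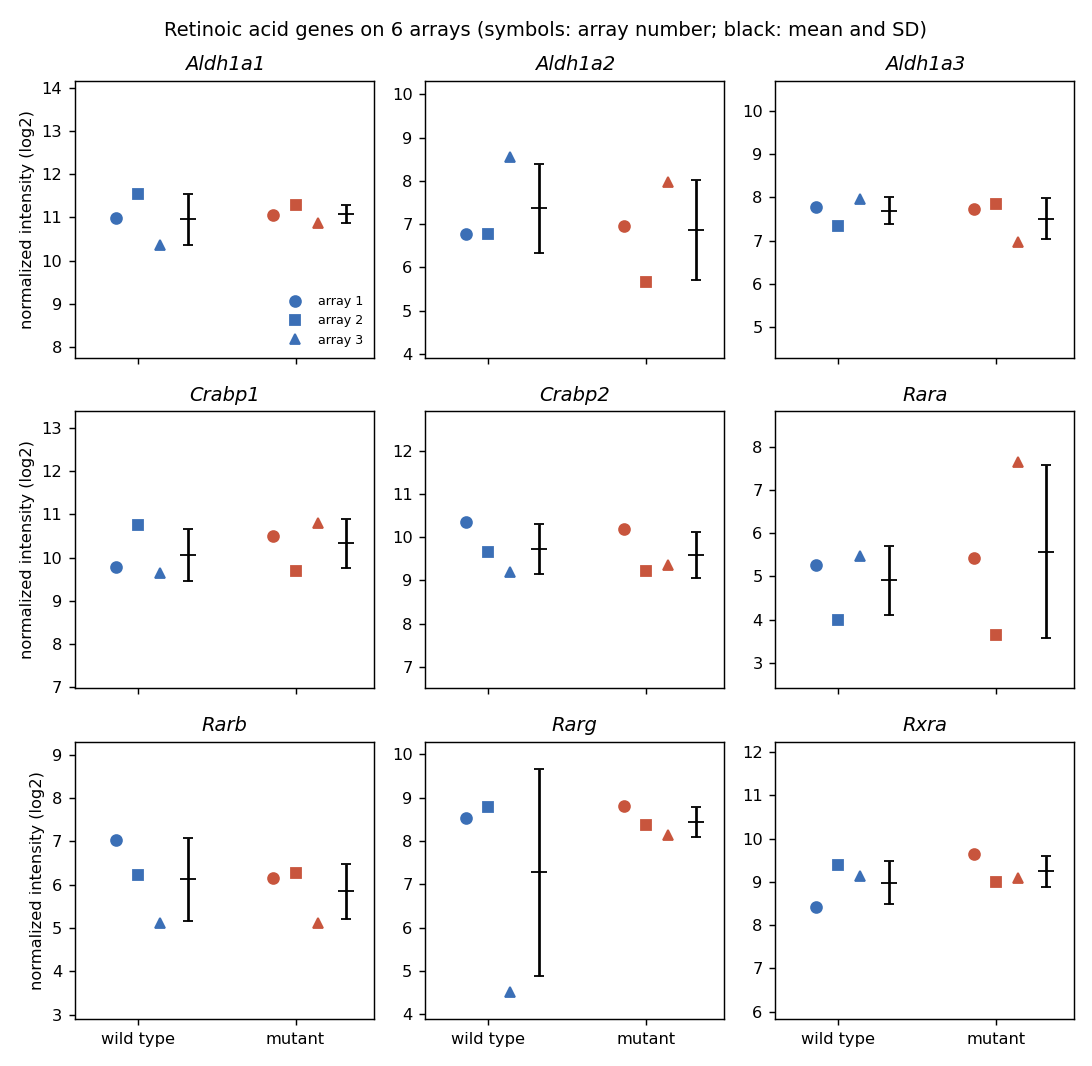
Normalized log2 intensity of each of the 9 genes on the 3 wild-type arrays (blue) and the 3 mutant arrays (red), with symbols for the array number and, in black, the mean and SD of each group. The y axes differ in position and share 1 scale length; the groups overlap in all 9 panels, and Rarg on wild-type array 3 lies at 4.50 against 8.15 to 8.81 on the other arrays.

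The synthesis enzymes come first. Aldh1a1, a retinaldehyde dehydrogenase found in supporting cells of several epithelia, had log2 levels of 10.97, 11.53 and 10.36 on wild-type arrays 1, 2 and 3 and of 11.07, 11.29 and 10.87 on mutant arrays 1, 2 and 3. The mutant values lay inside the wild-type range. The group means were 10.96 ± 0.59 and 11.08 ± 0.21 (SD, n = 3 each), a difference of 0.12 (SE 0.283). The 95% interval of the difference by limma ran from -0.50 to 0.74, which leaves room for a level up to 1.42-fold lower or 1.67-fold higher. The difference was -0.18 without wild-type array 3.

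Aldh1a2 is the enzyme that supplies most retinoic acid to the early embryo and is typical of mesenchyme. Its log2 levels were 6.78, 6.76 and 8.55 on wild-type arrays 1 to 3 and 6.95, 5.66 and 7.97 on mutant arrays 1 to 3. Both arrays numbered 3 were the high ones, whatever the genotype. The means were 7.36 ± 1.03 and 6.86 ± 1.15 (SD, n = 3 each), a difference of -0.50 (SE 0.714; interval -2.07 to 1.07). Within the pairs of arrays that share a number the differences were 0.17, -1.10 and -0.58. The difference was 0.10 without mutant array 2, 0.090 without wild-type array 3 and -1.07 without mutant array 3, so its sign and size rest on single arrays. The tested genes with the most similar profile were Sv2a, a synaptic vesicle protein, Zdhhc1 and Wdr75, whose mean-centred log2 values over the 6 arrays differed from those of Aldh1a2 by root mean squares of 0.106, 0.118 and 0.120. These 3 were picked for that likeness among 12703 genes, and their values describe the arrays only.

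Aldh1a3, the enzyme typical of the ventral eye and of nasal epithelium during development, was read by 3 probe sets. The brightest, 1448789_at, gave 7.77, 7.35 and 7.96 on wild-type arrays 1 to 3 and 7.72, 7.84 and 6.97 on mutant arrays 1 to 3. The groups overlapped and the lowest value was on mutant array 3, without which the difference was 0.088. The means were 7.70 ± 0.31 and 7.51 ± 0.47 (SD, n = 3 each), a difference of -0.18 (SE 0.463; interval -1.20 to 0.84). The other probe sets were dim, below the mean log2 level of 5.19 that was asked of a tested gene, and each lay at the floor on 1 array. Probe set 1417642_at differed by 0.33 (SE 0.982) and 1427395_a_at by 0.92 (SE 0.759) in a fit of all 45037 probe sets. The dim probe sets peaked on different arrays, 1417642_at on wild-type array 3 at 6.81 and 1427395_a_at on mutant array 2 at 6.40. With the probe sets averaged, the difference for Aldh1a3 was 0.35, and its sign therefore depended on the probe sets used.

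**Figure D2:**
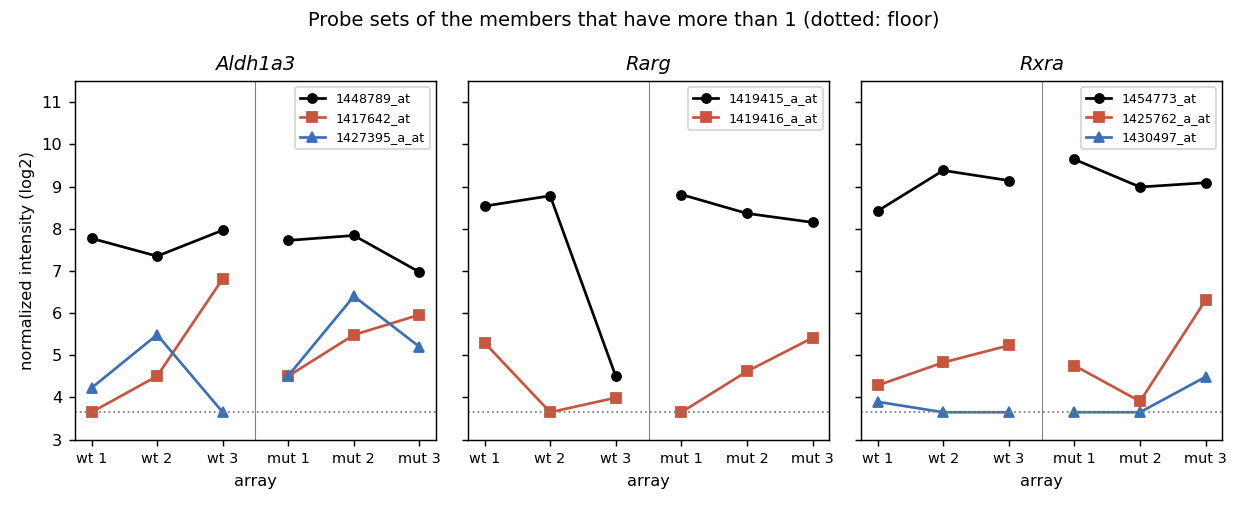
Normalized log2 intensity of every probe set of Aldh1a3, Rarg and Rxra on the wild-type (wt) and mutant (mut) arrays, with the floor as a dotted line. For each gene 1 probe set lies well above the others on most arrays; Rarg probe set 1419415_a_at drops to 4.50 on wild-type array 3, near 1419416_a_at at 3.99.

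Of the binding proteins, Crabp1 binds retinoic acid with high affinity and is known in neural crest mesenchyme. Its log2 levels were 9.78, 10.75 and 9.64 on wild-type arrays 1 to 3 and 10.50, 9.69 and 10.79 on mutant arrays 1 to 3. Wild-type array 2 and mutant arrays 1 and 3 formed a high set, and the other 3 arrays a low one, so the levels split the arrays across genotype. The means were 10.06 ± 0.60 and 10.33 ± 0.57 (SD, n = 3 each), a difference of 0.27 (SE 0.364; interval -0.54 to 1.07). Within pairs of one number the differences were 0.71, -1.06 and 1.15, and without both arrays numbered 3 the difference was -0.17.

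Marker sums of neighbouring tissues, and of some other cell types, were high on the same arrays as Crabp1. Markers of squamous epithelium, 10 of 10 measured, summed to normalized intensities of 421, 6011 and 584 on wild-type arrays 1 to 3 and 2513, 245 and 1906 on mutant arrays 1 to 3. Krt4 and Krtdap had the widest ranges among the 9 of them that were bright enough to be tested. Markers of cartilage and bone, 7 of 8 measured, summed to 873, 5953 and 1494 and to 3435, 1263 and 2293, with Ibsp, of bone matrix, ranging from the floor on mutant array 2 to 11.22 on wild-type array 2. Mesenchyme markers, 10 of 10 measured and none of them dim, summed to 18769, 26568 and 21254 and to 23471, 22018 and 22783. In each of these lists wild-type array 2 and mutant arrays 1 and 3 held the 3 highest sums, for mesenchyme by a narrow margin. Basal progenitor markers, 6 of 7 measured, were highest there too, at 6995, 7390 and 5447 beside at most 5257. So were leukocyte markers, 7 of 7 measured, at 2704, 2224 and 2635 beside at most 1784. These were not the 3 highest arrays for any other marker list. Single markers did not all follow their sum. In the basal progenitor list, Krt5 and Krt14 had their 3 highest levels on those 3 arrays. Trp63, Neurod1, Neurog1 and Kit did not. Trp63 was highest on mutant array 2, at 11.09 in log2, and Kit was lowest on wild-type array 2, at 5.61. Among the leukocyte markers, Lyz2 and Csf1r had their 3 highest levels on those 3 arrays. Tyrobp, Ptprc, Aif1, Cd68 and the dim Cd14 did not. Dcn, a matrix proteoglycan of the mesenchyme list, was lowest on those 3 arrays, at 9.92, 10.35 and 10.35 in log2 beside 10.47 to 10.85 on the others. The squamous marker Ivl was highest on wild-type array 3 and mutant array 3, at 8.10 and 7.98. It was at 5.47 on wild-type array 2 and 3.81 on mutant array 1. The cartilage marker Col9a1 was at 10.18 on wild-type array 3, above 10.06 and 10.14 on mutant arrays 1 and 3. No marker of these lists was at the floor on all arrays. The part of such tissue or cells in the level of Crabp1 was not tested.

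**Figure D3:**
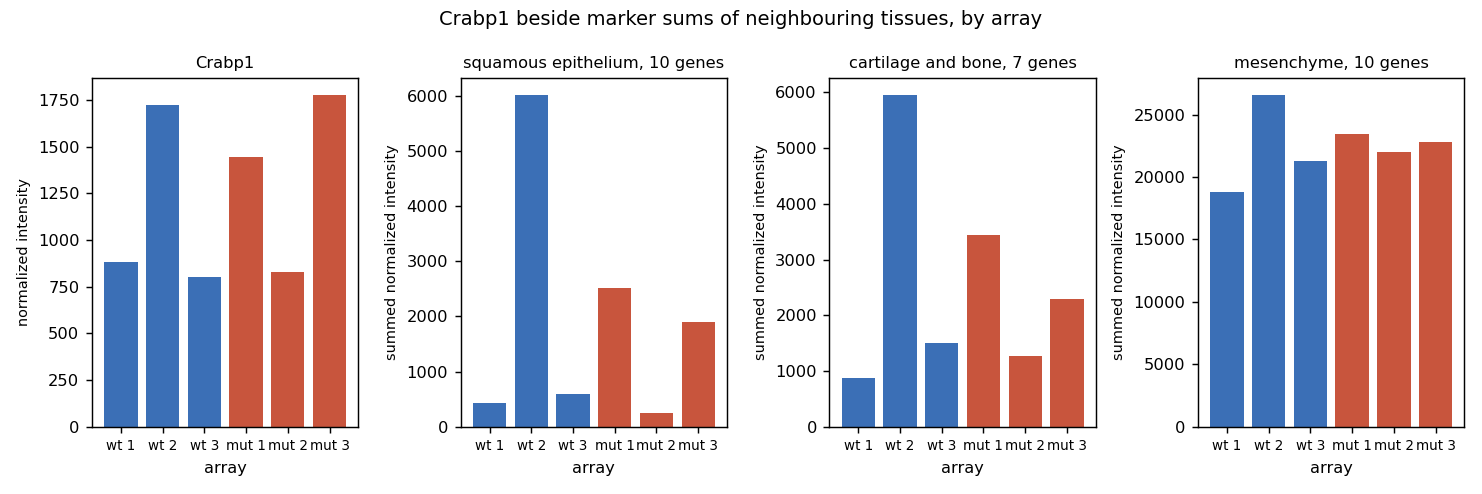
Normalized linear intensity of Crabp1 and summed normalized intensity of the marker lists for squamous epithelium, cartilage and bone, and mesenchyme, on each wild-type (wt, blue) and mutant (mut, red) array. In all 4 panels the 3 tallest bars are wild-type array 2 and mutant arrays 1 and 3.

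Crabp2, which hands retinoic acid to its receptors in the nucleus, had log2 levels of 10.35, 9.65 and 9.19 on wild-type arrays 1 to 3 and 10.19, 9.22 and 9.35 on mutant arrays 1 to 3. The highest level of each group was on its array 1. The means were 9.73 ± 0.58 and 9.59 ± 0.53 (SD, n = 3 each), a difference of -0.14 (SE 0.373; interval -0.96 to 0.68). The profile was unlike that of Crabp1, whose array 1 in wild type was among the low ones. The difference was 0.17 without wild-type array 1 and -0.44 without mutant array 1.

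Among the receptors, Rarb is itself a known target of retinoic acid, through a response element in its promoter. A script searched promoter windows from RefSeq (GRCm38.p6), each from 250 bases before to 50 after a transcription start, for 6-base motifs NGGTCA or NGTTCA in direct repeat with 1, 2 or 5 bases between them, on both strands. Of the 9 members, 7 had windows, 13 in all: Aldh1a1, Aldh1a2, Crabp1, Rara, Rarb, Rarg and Rxra. A repeat with 5 bases between was found in the Rarb window alone among them, beginning 53 bases upstream of the start, and in 0.247% of all 32851 windows. Repeats with 1 and with 2 bases between were in none of the 13, and in 0.402% and 0.396% of all windows. The same kind of repeat with 5 bases between lay in the window of Cyp26a1, which encodes a retinoic acid breakdown enzyme, there on the opposite strand to the gene. No repeat with any of the 3 spacings was in the single window of Cyp26b1 or in the 3 windows of Dhrs3, which were searched as well. The windows of Rarb and Cyp26a1 are shown because they hold the repeat, read 5′ to 3′ on the strand of each gene, with the repeat in capitals; that of Rarb is chr14:16575427-16575726 on the minus strand and that of Cyp26a1 is chr19:37697558-37697857 on the plus strand.
Rarb: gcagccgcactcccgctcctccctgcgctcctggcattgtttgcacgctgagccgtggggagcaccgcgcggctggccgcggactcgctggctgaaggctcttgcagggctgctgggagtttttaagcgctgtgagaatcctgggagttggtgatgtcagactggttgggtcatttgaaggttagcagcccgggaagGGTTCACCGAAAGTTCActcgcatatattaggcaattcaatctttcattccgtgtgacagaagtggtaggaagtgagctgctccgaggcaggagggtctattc
Cyp26a1: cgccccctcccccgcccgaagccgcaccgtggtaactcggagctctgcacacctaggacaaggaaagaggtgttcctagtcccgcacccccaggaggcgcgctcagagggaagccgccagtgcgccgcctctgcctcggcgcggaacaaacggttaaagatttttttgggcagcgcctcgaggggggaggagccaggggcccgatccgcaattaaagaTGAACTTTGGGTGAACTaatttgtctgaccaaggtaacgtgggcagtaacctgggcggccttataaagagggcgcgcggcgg
On its own strand the repeat reads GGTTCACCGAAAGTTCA in Rarb and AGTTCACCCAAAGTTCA in Cyp26a1. A match of these letters describes the sequence and does not show that a receptor binds there.

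Neither of these genes separated the groups. Rarb had log2 levels of 7.04, 6.23 and 5.12 on wild-type arrays 1 to 3 and 6.15, 6.28 and 5.11 on mutant arrays 1 to 3. The lowest level of each group was on its array 3, at nearly the same value. The means were 6.13 ± 0.96 and 5.84 ± 0.64 (SD, n = 3 each), a difference of -0.28 (SE 0.728; interval -1.89 to 1.32). It was 0.17 without wild-type array 1 and -0.81 without wild-type array 3. Cyp26a1 was dim, with log2 levels of 3.73, 5.53 and 3.95 on wild-type arrays 1 to 3 and 3.91, 5.31 and 4.40 on mutant arrays 1 to 3, and was highest on both arrays numbered 2. It differed by 0.14 (SE 0.629) in the fit of all probe sets.

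Rarg, a retinoic acid receptor of skin and other surface epithelia and of cartilage precursors, had the largest difference of the 9. Probe set 1419415_a_at had deposited intensities of 375.75, 477.33 and 24.75 on the wild-type arrays and of 466.95, 402.61 and 247.21 on the mutant arrays. In normalized log2 these were 8.54, 8.78 and 4.50, and 8.81, 8.36 and 8.15. Wild-type arrays 1 and 2 lay within the mutant range, and wild-type array 3 alone lay far below it. The means were 7.27 ± 2.40 and 8.44 ± 0.34 (SD, n = 3 each), a difference of 1.17 (SE 0.931; interval -0.88 to 3.22). It turned to -0.22 (SE 0.396) without wild-type array 3 and to -0.075 without both arrays numbered 3. The second probe set, 1419416_a_at, was dim and at the floor on 2 arrays, with a difference of 0.25 (SE 0.636).

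Some other genes also dropped on wild-type array 3. The tested genes with a profile most similar to that of Rarg were Rassf10, Skida1 and Gps1, at root mean square differences of 0.210, 0.213 and 0.229 over the 6 arrays, with spans of 4.60, 3.86 and 4.07 beside 4.31 for Rarg. These 3 were picked for that likeness among the 12703 genes tested, so they share the drop by selection. Within the retinoid pathway, Adh1, an alcohol dehydrogenase that can oxidize retinol, was at the floor of 3.65 on wild-type array 3 and at 7.75 to 8.93 on the other 5. It is named here after its values were seen. Rarres1, reported as a retinoid-responsive gene, was also at the floor there and at 5.60 to 7.28 elsewhere. Other retinoid genes were highest on wild-type array 3, among them Aldh1a2 at 8.55, Rxrg at 7.33 and Rdh11 at 6.82. Wild-type array 3 had the lowest total intensity of the 6, 10064207, and the highest share of values at 0, 6.35%. The part of these array properties in the low values was not tested.

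Rara, the widely expressed receptor, was close to the dim limit. Its deposited intensities were 29.80, 17.63 and 48.67 on wild-type arrays 1 to 3 and 33.87, 0.29 and 177.41 on mutant arrays 1 to 3. Mutant array 3 was high and mutant array 2 was at the floor, and the wild-type values fell between them. In normalized log2 the means were 4.91 ± 0.80 and 5.57 ± 2.0 (SD, n = 3 each), a difference of 0.66 (SE 1.036; interval -1.62 to 2.94). The interval reaches from 3.06-fold lower to 7.69-fold higher, so the values of Rara on these arrays remained compatible with any change within those bounds. The difference was 0.20 without wild-type array 2 and 1.62 without mutant array 2, and without mutant array 3 Rara was under the dim limit. The nearest profiles were those of Drd4, a dopamine receptor, Sst, the neuropeptide somatostatin, and Tead4, a transcription factor of the Hippo pathway, at root mean square differences of 0.325, 0.417 and 0.432. They too were picked for likeness and describe the arrays only.

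Rxra encodes the retinoid X receptor that pairs with each of the retinoic acid receptors. Probe set 1454773_at gave log2 levels of 8.42, 9.38 and 9.14 on wild-type arrays 1 to 3 and 9.64, 8.99 and 9.09 on mutant arrays 1 to 3. The highest and the lowest level were both on arrays numbered 1. The means were 8.98 ± 0.50 and 9.24 ± 0.35 (SD, n = 3 each), a difference of 0.26 (SE 0.359; interval -0.53 to 1.05). It was -0.021 without wild-type array 1. The other probe sets were dim: 1425762_a_at differed by 0.21 (SE 0.741), and 1430497_at, at the floor on 4 arrays, by 0.20 (SE 0.251).

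How far the members varied between arrays of a group set what could be seen. The pooled within-group SD of Rarg ranked at the 97.0th percentile of the 12703 genes tested, that of Rara at 94.9 and that of Aldh1a2 at 84.7. Those of Aldh1a3, Rxra and Aldh1a1 ranked at 31.6, 35.4 and 36.7. For Aldh1a1 the interval reached from 1.42-fold lower to 1.67-fold higher in the mutant, for Rxra from 1.45-fold lower to 2.07-fold higher, and for Aldh1a3 from 2.30-fold lower to 1.78-fold higher. For Crabp1 it reached from 1.45-fold lower to 2.10-fold higher and for Crabp2 from 1.95-fold lower to 1.60-fold higher. No member kept the sign of its difference in all 3 pairs of arrays with the same number. Of all 14 probe sets, 0 passed an adjusted p of 0.05 in the limma fit of every probe set, beside 0 of 45037, or 0%, and 0 were at an unadjusted p under 0.05, beside 482, or 1.07% (0.591% lower and 0.48% higher). The groups overlapped for all 14, while they did not overlap for 2.7% of all probe sets (1.51% lower and 1.2% higher).

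**Figure D4:**
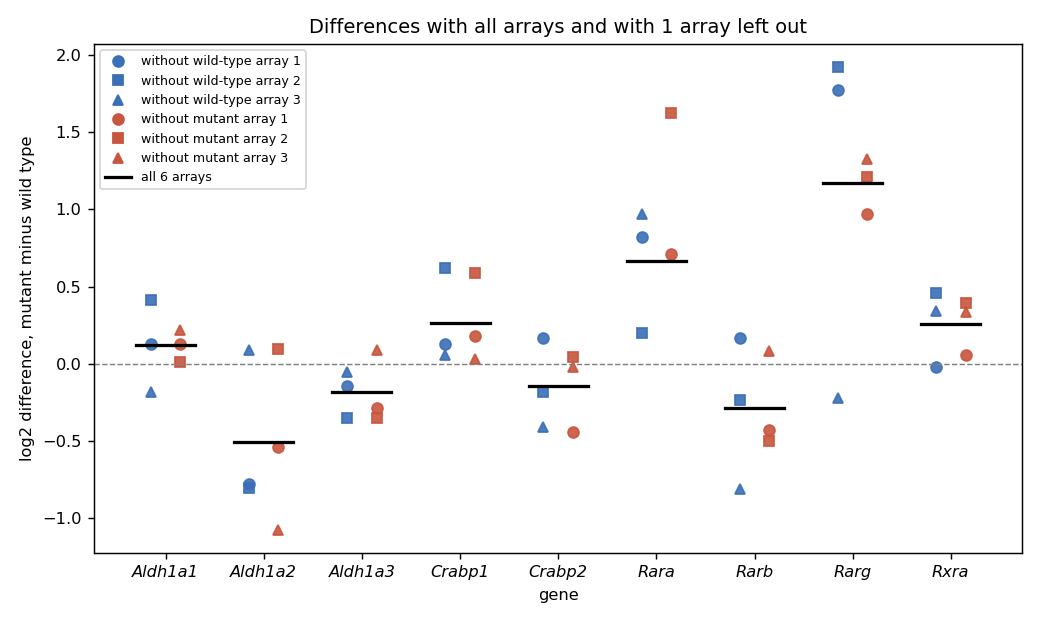
Log2 difference, mutant minus wild type, of each member with all 6 arrays (black line) and with each array left out in turn (symbols). Rarg moves from 1.17 to -0.22 without wild-type array 3 and Rara from 0.66 to 1.62 without mutant array 2; Rara has no value without mutant array 3, where it was under the dim limit.

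GC boxes (GGGCGG) and CACCC boxes (CACACCC) are sequence types bound by Krüppel-like and related zinc finger factors as a family. Searched on both strands, a GC box was found in 6 of the 13 member windows, those of 4 of the 7 genes, beside 35.7% of all windows and 38.2% of all genes with windows. Crabp1 held 5 of them in its single window, between 178 and 12 bases upstream of the start. Rxra held 4 and Rarg 3, of which 2 overlap by a base, each in the upstream one of its windows, and Rara held 4 in each of its overlapping windows, which are the same 4 sites. A separate window of Rara held 1 more GC box, 101 bases upstream of the start. A CACCC box was found in 4 of the 13 windows, of Aldh1a2, Rara and Rxra, beside 7.95% of all windows and 9.05% of all genes with windows. The overlapping windows of Rara hold the same CACCC site, which overlapped a GC box. Neither box was in the windows of Aldh1a1 or Rarb.

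The rest of the pathway was described with a list of 44 further genes, chosen by textbook role. A probe set of their own was found for 38, and 28 passed the dim limit. Of the 28, 13 were lower and 15 higher in the mutant, with a median difference of 0.03, and 0 passed an adjusted p of 0.05 or an unadjusted p under 0.05 (limma). The groups did not overlap for 3 of the 28, 2 of them lower and 1 higher, beside 1.95% lower and 0.905% higher over all genes. When arrays were scaled to equal medians instead, it was 0 of 28, beside 177 of 12684 genes. It was 1 of 28 with no normalization between arrays, beside 330 of 12689 genes. With probe sets averaged it was 0 of 26, beside 339 of 11618 genes. With any 1 array left out it lay between 3 and 6, while the count over all genes tested lay between 1031 and 1450.

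All 3 genes whose groups did not overlap encode retinal or retinol reductases and dehydrogenases. Rdh10, which makes the retinal that the Aldh1a enzymes use, had log2 levels of 9.83, 9.68 and 9.63 on wild-type arrays 1 to 3 and 10.24, 10.16 and 9.90 on mutant arrays 1 to 3. All mutant arrays lay above all wild-type arrays, and the difference of 0.39 (SE 0.248; interval -0.16 to 0.94) had an adjusted p of 1 by limma. It stayed between 0.32 and 0.48 when any 1 array was left out. The groups overlapped for Rdh10 with array medians set equal, with no normalization between arrays and with its probe sets averaged. Rdh11, which reduces retinal back to retinol, had levels of 6.28, 5.87 and 6.82 on wild-type arrays 1 to 3 and 5.72, 5.85 and 5.25 on mutant arrays 1 to 3. Its difference was -0.72 (SE 0.642), and within number 2 it was -0.02. The groups of Rdh11 overlapped in the same settings as those of Rdh10, and its difference was -0.39 with its probe sets averaged. Rdh14, another enzyme of this family, had 7.67, 7.40 and 7.80 on wild-type arrays 1 to 3 and 7.29, 7.02 and 7.32 on mutant arrays 1 to 3, a difference of -0.42 (SE 0.447). It was 0.061 with the probe sets of Rdh14 averaged, so its direction depended on the probe set.

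**Figure D5:**
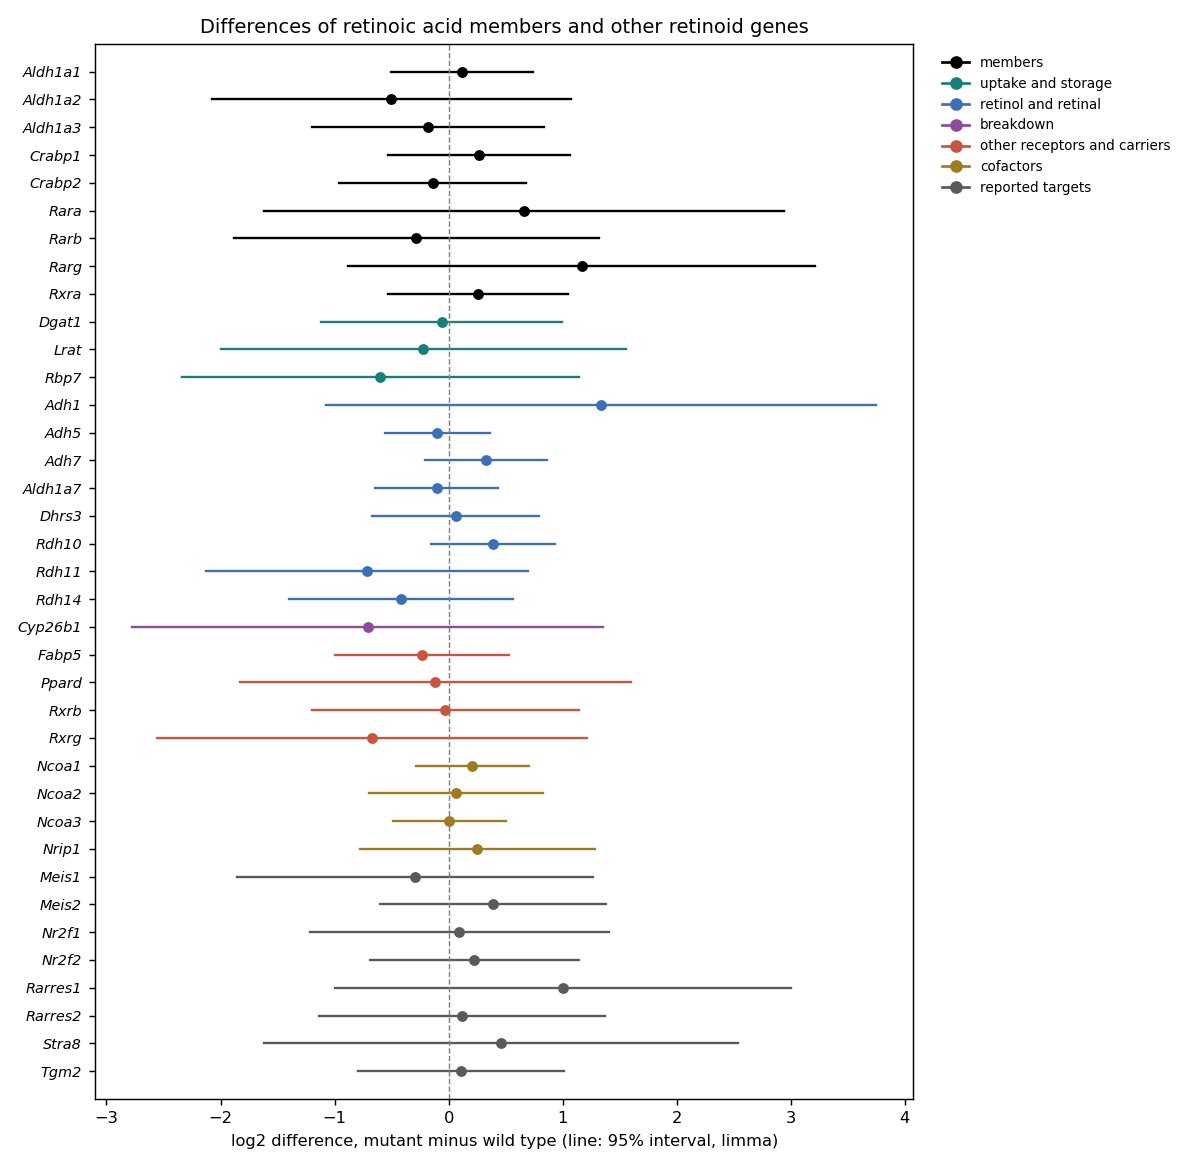
Log2 difference, mutant minus wild type (points), with its 95% interval by limma (lines), for the 9 members and the 28 other retinoid genes tested, coloured by role. Every interval includes 0; that of Rdh10 runs from -0.16 to 0.94 and that of Rarg from -0.88 to 3.22.

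Of the uptake and storage genes, 3 of 7 were tested and all 3 had a lower mean in the mutant, among them Rbp7, a retinol binding protein, at -0.60 (SE 0.790), which ranged from -1.16 without mutant array 1 to -0.13 without mutant array 2, and Lrat, which stores retinol as esters, at -0.22 (SE 0.808). Stra6, the retinol uptake receptor, was dim. Of the breakdown enzymes, 1 of 3 was tested: Cyp26b1 had levels of 6.69, 5.94 and 4.30 on wild-type arrays 1 to 3 and 6.23, 4.93 and 3.65 on mutant arrays 1 to 3. Cyp26b1 was lower in the mutant within each number, with differences of -0.46, -1.02 and -0.65, while the spread between numbers was larger than that and the groups overlapped; its difference was -0.71 (SE 0.939), and -0.71 (SE 0.491) with the number as a block. It was -0.072 without mutant array 3 and -1.39 without wild-type array 3. Of the other receptors and carriers, 4 of 4 had a lower mean, with Rxrg, a retinoid X receptor that was also lower within each number (-0.61, -0.31 and -1.08), at -0.67 (SE 0.856, or 0.487 with the block) and Fabp5, a fatty acid binding protein that also carries retinoic acid, at -0.23 (SE 0.346). Fabp5 was at -0.64 without wild-type array 1. Of the cofactors, 4 of 6 were tested and all 4 had a higher mean, with the coactivator Ncoa1 at 0.21 (SE 0.226) and Nrip1, a ligand-dependent corepressor, at 0.25 (SE 0.469).

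Of the genes reported as retinoid targets, 8 of 10 were tested, with 1 lower and 7 higher means and a median difference of 0.17. Rarres1 had a difference of 1.01 (SE 0.909), which came to 0.091 when wild-type array 3, where it lay at the floor, was left out. For Meis2, a homeodomain factor of limb and head mesenchyme, the difference was 0.39 (SE 0.452), with -0.10 without wild-type array 1 and 0.83 without wild-type array 3. Dhrs3, a retinal reductase that retinoic acid induces in many tissues and that was listed with the retinol and retinal enzymes, differed by 0.06 (SE 0.333). Aldh1a7, the mouse enzyme closest in sequence to Aldh1a1, had levels from 9.66 to 9.93, with a difference of -0.10 (SE 0.246). Whether probes for Aldh1a1 and Aldh1a7 read each other's transcripts was not tested.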

How the data were processed

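RNA from 6 pups was amplified and biotin-labelled with the NuGEN Ovation system, per the labels' protocols. The deposited table holds 1 linear intensity per probe set and array; the sources used here do not say how the authors summarized probes, corrected background or scaled arrays. Exact zeros made up 5.39% of values. The platform annotation gave the gene names: 34945 probe sets carried 1 symbol, 932 several and 9160 none; those with several or none name no result.

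Intensities were quantile normalized, floored at 12.56, the 20th percentile (3.65 in log2), and logged. Each gene took its brightest single-gene probe set. Genes with a mean in the lowest 40%, under 5.19, were left out as dim, which removed 5490 of 18193 and left 12703. The test of mutant against wild type was limma 3.58.1 under R 4.3.3 (eBayes with an intensity trend, two-sided, Benjamini-Hochberg over all genes fitted), and again over all 45037 probe sets without the dim filter. Intervals are 95% intervals of the moderated fit. The fit was tested on simulated data with independent noise for each gene and array. Such data lack the deviations that the real arrays share, so the test does not cover them. The precision is limited by the number of arrays.

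Replicate numbers come from the sample titles. Deviations from group means of same-numbered arrays correlated at 0.47, 0.18 and 0.56 across genes. For number 2 this was below the 0.22 of wild-type array 2 with mutant array 1. Differences within numbers are given as description. The main fit was not paired, and the number entered as a block only in an alternative fit.

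Other scalings, floors, dim filters, probe set rules and variance models were tried, and each array was left out in turn. The members and lists were chosen with earlier results of these data known. All members are named with every probe set. Of each pathway list, genes whose groups do not overlap are named, or else the 2 of smallest p. For members spanning over 2 log2 units, the 3 genes nearest in profile are named, clone names skipped. Other genes named were added after their values were seen. The response element search took the 6-base motif with a free first base. Protein sequences were not used here.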

Additional observations from a re-analysis of the deposited data

How the results depend on the processing

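Under 17 alternative settings each, limma called 0 members, 0 other retinoid genes and 0 genes over all tested; the count of genes at an unadjusted p under 0.05, 76, became 157 under the replicate block, 43 with array medians set equal, 50 with no normalization between arrays, 191 with no filter on dim genes, 131 with array weights and 120 without both arrays numbered 3, and lay between 67 and 212 with any 1 array left out. With the replicate block the member counts and differences were the same and their adjusted p stayed at 1, so it changed no call: 4 of 9 members were lower, and Rarg differed by 1.17 (SE 0.704). The count of lower members lay between 2 and 5 when 1 array was left out, at 2 without mutant array 2 or mutant array 3, and was 6 of 8 without both arrays numbered 3. Without a dim filter, 20 of 38 other retinoid genes were lower, in place of 13 of 28, as more genes were tested; with 1 array left out it was 10 to 16. With array medians set equal or with no normalization, no member tested changed sign. Some differences turned sign, with causes not tested. With array weights Aldh1a1 went to -0.033, and with probe sets averaged Aldh1a3 went to 0.35 and Rdh14 to 0.061. Without both arrays numbered 3, Aldh1a1 went to -0.078, Aldh1a3 to 0.23, Crabp1 to -0.17 and Rarg to -0.075. Rdh14 went to 0.41 there, but each fit picked the brightest probe set anew. The Rdh14 probe set of the main fit differed by -0.38 and -0.39 within numbers 1 and 2, so the 0.41 is of another probe set.

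With any 1 array left out, the differences ranged from -0.18 to 0.41 for Aldh1a1, -1.07 to 0.10 for Aldh1a2, -0.35 to 0.088 for Aldh1a3, -0.44 to 0.17 for Crabp2, -0.81 to 0.17 for Rarb, -0.22 to 1.92 for Rarg and -0.021 to 0.46 for Rxra. They ranged from 0.03 to 0.62 for Crabp1 and from 0.20 to 1.62 for Rara, with no change of sign. Among other retinoid genes they ranged from -0.094 to 0.59 for Nrip1, -1.18 to 0.045 for Rxrg, -0.64 to 0.0049 for Fabp5, -0.52 to 0.47 for Rdh14, -0.10 to 0.83 for Meis2 and -0.34 to 0.090 for Lrat. The 0.47 of Rdh14, without mutant array 3, is also of another probe set than in the main fit. Some unadjusted p-values by limma fell under 0.05 in single settings. Fabp5 had 0.042 without wild-type array 1, where 107 of 12774 genes were under 0.05. Meis2 had 0.037 without both arrays numbered 3, beside 120 of 12623 genes. Rdh10 had 0.049 with no filter on dim genes, beside 191 of 18193. In each of these settings 0 genes passed an adjusted p of 0.05. Rara fell under the dim limit, and has no value, with no normalization, with log2 of intensity plus 16, with a floor at the 5th percentile, without mutant array 3 and without both arrays numbered 3.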
